A study of Drosophila melanogaster with 48 samples.

Results

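Ribosome-bound RNA of Drosophila astrocytes was compared between subjective dawn and subjective dusk. The data were 8 of the 24 libraries of a time series in constant darkness (DD), namely those collected at 0 h and 24 h in DD (dawn, 4 libraries) and at 12 h and 36 h in DD (dusk, 4 libraries). Each library was the sum of its 2 sequencing data sets, so 16 of the 48 data sets entered the comparison. Every library had the same genotype: elav-Gal80, eaat1-Gal4 females had been crossed to elav-Gal80, UAS-EGFP-L10a males, which places an EGFP-tagged ribosomal protein in the astrocytes of the adult head. The tagged ribosomes were then precipitated from pooled heads with their RNA (translating ribosome affinity purification, TRAP). The flies had been kept in light-dark cycles of 12:12 before they were moved to DD, and their age was not given in the sources used here. The 2 biological replicates came from independent crosses, and biological replicate was kept as a block in the test. The eaat1 driver is not restricted to astrocytes alone, and elav-Gal80 was present to suppress Gal4 in neurons. Each library is 1 pool of heads, so p-values measure the spread between 4 pools per phase, and fewer cells of a type cannot be told apart from less RNA per cell.

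In the fly clock, CLOCK and CYCLE activate per and tim during the day, and the PERIOD and TIMELESS proteins later repress CLOCK and CYCLE. A second loop runs through vri and Pdp1, whose products repress and activate Clk. In flies kept in light-dark cycles, per, tim and vri RNA is known to be low around dawn and high in the evening, and Clk RNA is known for the opposite phase. Dawn and dusk in DD therefore sample these loops on opposite sides of the cycle with no light present, and the question was which ribosome-bound RNAs differed between both sides.

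Counts on genes ranged from 6496669 to 29616035 per library. The number of genes with at least 10 counts was 8606 to 11526 in the dawn libraries and 8767 to 11313 in the dusk libraries. The share of alignments set aside as not unique was 21.7% to 36.9% in replicate 1 and 4.03% to 6.44% in replicate 2. The first principal component held 58.6% of the variance and set both 0 h libraries and 12 h replicate 1 apart from the other 5 libraries, so that it crossed the phases. Of the astrocyte marker list, 5 of 12 genes could be paired with an identifier (CG1552, e, Eaat2, Gabat and Tret1-1). Listed markers such as alrm, Gat and Nkt could not, so the sum covers only part of the list. The summed level of the 5 genes was 345 to 491 CPM (read counts scaled to a common library size) at dawn and 378 to 546 at dusk. Photoreceptor markers (5 of 14 genes paired) summed to 1364 to 2610 CPM at dawn and 1181 to 1650 at dusk. None of the 6 marker sums that could be made differed between the phases by an exact permutation test over libraries (two-sided p = 0.371 to 0.886, with 0.0286 the smallest possible). The neuron and muscle lists held no gene that could be paired with an identifier, so the labelled cell type was not tested against them, and the part of photoreceptor RNA in the results was not tested.

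Of 9392 genes tested, 1 gene, per, was higher at dusk at an adjusted p under 0.05 (edgeR quasi-likelihood test, 0.0106% of the genes tested), and 0 genes were higher at dawn (0%). At an unadjusted p under 0.05, 150 genes were higher at dusk (1.6%) and 185 at dawn (1.97%). DESeq2 on the same libraries called 15 genes in each direction (0.421% each of the 3565 genes to which it gave an adjusted p). A fit in which all 24 libraries shared 1 estimate of the spread called 3 genes in each direction (0.0319% each), which were per, tim and vri at dusk and Ugt35B1, Nepl9 and Achl at dawn. In 84 genes the 4 dusk libraries were all above the 4 dawn libraries (0.894%), and in 100 genes the reverse held (1.06%). The median log2 change over all genes was 0.01. Symbols could be given to 1777 of the genes tested, mostly from the study's table of expressed genes in the order of its rhythm test on these samples, of which only the upper part was held here, so named genes were richer in separated genes (46 at dusk, 2.59%, and 59 at dawn, 3.32%, together 105 genes, 5.91%) than the table as a whole (184 genes, 1.96%).

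The clock gene per had the smallest p of all genes. Levels are given as CPM scaled by TMM over the 8 libraries, and no level is compared between genes, since transcript lengths differ. For per the level was 13.1 and 9.50 CPM in the 0 h libraries of replicates 1 and 2, and 8.70 and 10.8 CPM in the 24 h libraries. At 12 h it was 52.2 and 51.6 CPM, and at 36 h 37.8 and 49.4 CPM. No dusk library came near the dawn range, and both days and both crosses showed the step. The fitted log2 change was 2.19 (SE 0.18, here and below from least squares on the log2 scale), a 4.55-fold rise from 10.5 ± 1.91 to 47.7 ± 6.76 CPM (SD, n = 4 each; edgeR adjusted p = 0.0433). The gene lies on chromosome X at 2685580 to 2692780 (Release 6), where the annotation also places dyw, and reads of overlapping genes cannot be told apart without the strand setting of the counting. The same limit holds for 26 of the 69 named genes. Among them are r (CG15865), Ect3 (Tk), SPE (CG18754), BomBc2 (BomS4), Mtk (Stacl), Hpd (CtIP), GstE9 (imd) and tobi (rha). Of the 69, 4 have no symbol here, so their position was not known and their overlap was not checked. In edgeR on the 8 libraries the call of per was close to the threshold. It was lost in each of the 8 fits that left out 1 library (edgeR adjusted p = 0.066 to 0.313). The log2 change of per stayed between 2.09 and 2.34. The adjusted p of per was 4.3e-17 in DESeq2 on the 8 libraries and 3.0e-04 in the edgeR fit of all 24 libraries. Each was the smallest among the calls of that fit.

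The partner gene tim stood at 30.8 and 61.7 CPM at 0 h and at 48.5 and 124 CPM at 24 h. Its dusk levels were 198 and 220 CPM at 12 h and 176 and 332 CPM at 36 h. The groups did not overlap, and 24 h replicate 2 was by far the highest of the dawn libraries. The log2 change of tim was 1.91 (SE 0.33; edgeR adjusted p = 0.845, unadjusted p = 2.5e-04). For vri, which encodes a repressor of Clk, the dawn levels were 9.77, 11.9, 12.7 and 24.1 CPM and the dusk levels 93.0, 52.6, 66.8 and 47.6 CPM. The groups did not overlap, replicate 1 had the larger step on both days, and the log2 change was 2.15 (SE 0.38; edgeR adjusted p = 0.845). Both genes passed the threshold in DESeq2 (adjusted p = 3.4e-06 for tim and 1.0e-05 for vri) and in the fit of all 24 libraries.

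The remaining members of the loops that could be tested differed less. Clk was higher in all dawn libraries (12.0 to 16.6 CPM) than in all dusk libraries (2.89 to 11.2 CPM), but 12 h replicate 1 alone gave the value of 2.89, and the log2 change was -0.72 (SE 0.41; edgeR adjusted p = 1.00). Pdp1, the activator of Clk, ranged from 34.4 to 72.6 CPM at dawn and from 27.6 to 87.2 CPM at dusk. cry, the blue light receptor of the clock, ranged from 57.2 to 168 CPM at dawn and from 65.1 to 170 CPM at dusk. The phases overlapped for both genes, with log2 changes of 0.36 for Pdp1 and 0.01 for cry, and the sign for cry turned under several other settings, RLE size factors (-2.8e-04) among them. Over all collection times, scaled over the 24 libraries, Pdp1 had its lowest mean at the 4 h phase (25.6 CPM) and its highest at 16 h (93.1 CPM). cry had its highest mean at 4 h (110 CPM) and its lowest at 16 h (47.5 CPM). Dawn against dusk thus does not show whether these RNAs cycle, and the paper lists both as cycling. Over the 6 members tested, of 8 listed, the median log2 change was 1.13.

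**Figure D1:**
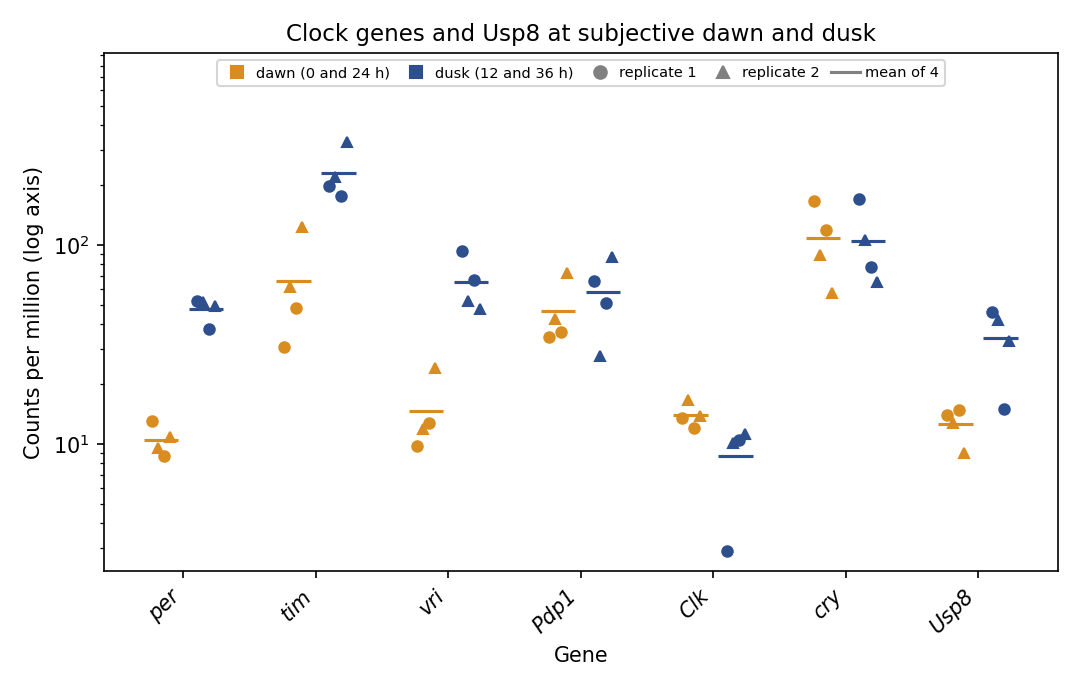
Levels of 6 clock genes and of Usp8 in each of the 8 libraries, in CPM on a log axis, with dawn in orange, dusk in blue, replicate 1 as circles, replicate 2 as triangles and the mean of 4 libraries as a line. The dusk libraries lie above all dawn libraries for per, tim, vri and Usp8, while Pdp1 and cry overlap and Clk is lower at dusk.

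Usp8 encodes a deubiquitinase that is known in flies to act on the CLOCK protein. Its dawn levels were 14.0, 12.8, 14.7 and 9.04 CPM, and its dusk levels were 46.2, 42.2, 15.0 and 32.8 CPM. The 36 h library of replicate 1 lay just above the highest dawn library, whereas the other dusk libraries were far higher. The log2 change was 1.43 (SE 0.43; edgeR adjusted p = 1.00, DESeq2 adjusted p = 0.041). Without 36 h replicate 1 the log2 change was 1.74 (edgeR adjusted p = 0.171).

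Among genes listed as clock outputs, 18 of 18 were tested and 0 passed the adjusted threshold. Of the 18, 8 had an unadjusted edgeR p under 0.05 (against 3.57% of all genes tested and 10.4% of those with a symbol). The list's median log2 change was -0.33. This list was chosen with earlier results of these data known, so the count is a description and not a test of an outside set. ple encodes tyrosine hydroxylase, the first enzyme of dopamine synthesis. Its levels at dawn were 11.5, 11.2, 9.13 and 7.77 CPM, and at dusk 4.46, 1.57, 3.28 and 2.41 CPM. Each dawn library was above each dusk library, with a log2 change of -1.82 (SE 0.25; edgeR adjusted p = 0.845). Ugt35B1, a UDP-glycosyltransferase, stood at 84.4, 71.8, 55.4 and 69.0 CPM at dawn and at 13.3, 17.2, 35.8 and 20.3 CPM at dusk. Here too the groups were separate, with the weakest step on the second day of replicate 1, and the log2 change was -1.71 (SE 0.35; edgeR adjusted p = 0.845, DESeq2 adjusted p = 5.6e-05, all 24 libraries 0.024). Jhe, the juvenile hormone esterase, was scarce in both phases (4.54 ± 1.91 CPM at dawn and 0.848 ± 0.381 CPM at dusk, SD, n = 4) with the groups separate and a log2 change of -2.38.

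In the other direction, Gclm, the modifier subunit of the enzyme that makes the glutathione precursor, averaged 172 ± 41.5 CPM at dawn and 280 ± 69.6 CPM at dusk, with a log2 change of 0.72 (DESeq2 adjusted p = 0.034). AhcyL2, an adenosylhomocysteinase-like gene, averaged 7.60 ± 1.27 and 14.2 ± 4.85 CPM. Both genes had separate groups. Slob, which encodes a protein that binds the Slowpoke potassium channel, had 36.7 CPM in 36 h replicate 1, inside the dawn range of 30.1 to 46.8 CPM, while the other dusk libraries lay between 72.5 and 120 CPM. The step of Achl differed between the days, with 14.3 to 22.3 CPM at dawn, 0.391 and 1.73 CPM at 12 h, and 17.5 and 6.18 CPM at 36 h. Achl was thus low at the first dusk in both crosses and within the dawn range at the second dusk in replicate 1, with a log2 change of -1.53 (SE 1.04; edgeR adjusted p = 1.00, and 0.998 for the difference between the days).

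**Figure D2:**
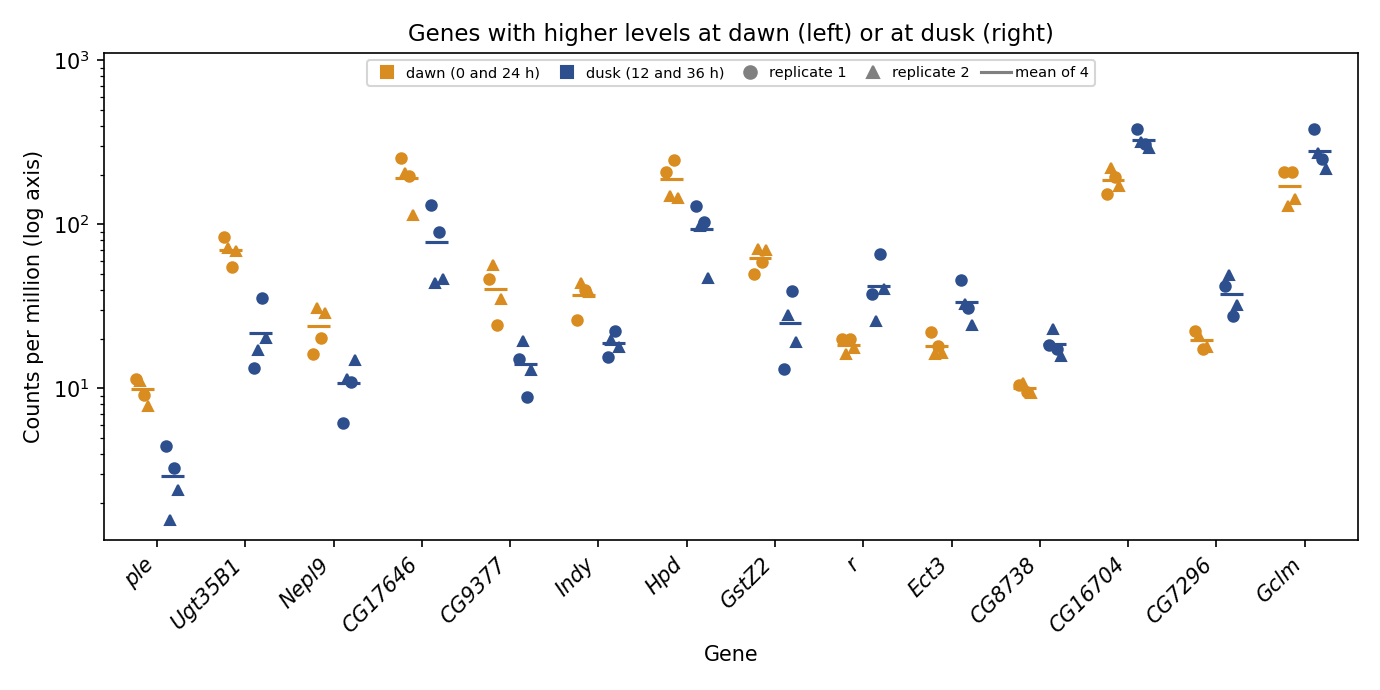
Levels of 14 genes in the 8 libraries, in CPM on a log axis, with 8 genes of higher mean at dawn on the left and 6 of higher mean at dusk on the right; colours, symbols and lines are as in the plot of clock genes. Only CG17646 has overlapping groups, since its 24 h library of replicate 2 (114 CPM) lies below 12 h replicate 1 (131 CPM).

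Of the 10 genes with the smallest p among those higher at dawn, 7 had separate groups (against 1.06% of all genes tested). All 10 were lower at dusk in 4 of 4 pairs of the same day and replicate. Both counts follow in part from the choice of genes by p in this same contrast. The log2 changes of the 10 genes lay between -0.78 and -1.82. Nepl9, a neprilysin-like peptidase, had 16.2, 30.9, 20.4 and 28.9 CPM at dawn and 6.18, 11.4, 10.9 and 14.9 CPM at dusk. The groups nearly met, and the libraries of replicate 2 were the higher ones in both phases. The log2 change of Nepl9 was -1.14 (SE 0.21; edgeR adjusted p = 0.845, all 24 libraries 0.0084). CG17646, an ABC transporter of the G subfamily, averaged 193 ± 58.3 CPM at dawn and 78.0 ± 41.4 CPM at dusk. CG9377 averaged 40.6 ± 14.0 and 14.1 ± 4.43 CPM, and the citrate transporter gene Indy 37.1 ± 7.69 and 18.96 ± 2.95 CPM. Gasp, a chitin-binding protein, averaged 8.42 ± 1.96 and 3.82 ± 0.608 CPM. The kinase gene Drak averaged 31.8 ± 6.05 and 18.6 ± 1.99 CPM. The 2 genes without a symbol were FBgn0261955 (log2 change -1.18) and FBgn0023083 (-0.83). Libraries of replicate 2 were higher than those of replicate 1 in both phases for FBgn0261955, so its groups overlapped although each dusk library was below its dawn pair.

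Of the 10 genes with the smallest p among those higher at dusk, 3 were per, tim and vri. r encodes the enzyme that starts pyrimidine synthesis. It stood at 19.99, 16.1, 20.1 and 17.6 CPM at dawn and at 37.6, 25.9, 65.7 and 40.3 CPM at dusk. Its dawn libraries were close together and its dusk libraries wide apart, and the log2 change was 1.17 (SE 0.24; edgeR adjusted p = 0.874, DESeq2 adjusted p = 0.0069). Ect3, a beta-galactosidase-like gene, averaged 18.2 ± 2.69 CPM at dawn and 33.5 ± 8.91 CPM at dusk. CG8738 averaged 10.1 ± 0.720 and 18.6 ± 3.16 CPM, CG16704 186 ± 29.4 and 326 ± 39.4 CPM, and CG7296 19.7 ± 2.38 and 37.8 ± 9.66 CPM. FBgn0038738 and FBgn0032213, which have no symbol here, had log2 changes of 0.60 and 0.68. All of these had separate groups (against 0.894% of all genes tested), which follows in part from their choice by p.

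The genes Hpd, hgo, Faa and Ogdh were picked out, and GstZ2 was grouped with them, after their values were seen. GstZ2 itself was named by rule, with the smallest p of the glutathione S-transferase list. Hpd, the enzyme that makes homogentisate from the tyrosine keto acid, had 210, 150, 248 and 145 CPM at dawn and 130, 97.7, 103 and 47.1 CPM at dusk. The groups were separate and the log2 change was -1.002 (SE 0.25; edgeR adjusted p = 1.00, DESeq2 adjusted p = 0.0067). GstZ2, of the glutathione S-transferase class that isomerizes maleylacetoacetate, averaged 62.2 ± 9.82 and 25.0 ± 11.5 CPM (log2 change -1.31, DESeq2 adjusted p = 0.022). hgo, which opens the ring of homogentisate, averaged 27.5 ± 4.63 and 17.7 ± 5.91 CPM with separate groups (log2 change -0.64). Faa, the fumarylacetoacetase, averaged 47.4 ± 8.29 and 40.4 ± 4.85 CPM with overlapping groups (-0.23). In the 16 libraries of the other times the log2 changes were -0.34 for Hpd and -0.46 for GstZ2, and 0.13 for both hgo and Faa. Ogdh, the oxoglutarate dehydrogenase of the citric acid cycle, averaged 191 ± 12.5 CPM at dawn and 129 ± 10.999 CPM at dusk (log2 change -0.57, SE 0.08; DESeq2 adjusted p = 0.0034).

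The Toll pathway is the fly's defence route against fungi and many Gram-positive bacteria. Of 20 listed genes of this pathway, 9 could be tested, and 0 passed the adjusted threshold. Most symbols came from tables ranked by rhythm in these samples, so the 9 may not stand for the pathway. An unadjusted edgeR p under 0.05 was found for 5 of the 9 (against 3.57% of all genes tested and 10.4% of those with a symbol). The median log2 change was 0.41, and 7 of the 9 were positive (against 51.5% of the genes with a symbol). SPE, the protease that activates the Toll ligand, had 179, 105, 125 and 154 CPM at dawn and 190, 206, 285 and 205 CPM at dusk. The lowest dusk library was only slightly above the highest dawn library, and the log2 change was 0.66 (SE 0.22). The log2 changes were 0.52 for the recognition receptor PGRP-SA, 0.46 for the serpin nec and 0.47 for the fungal sensor GNBP3, and each was higher at dusk in 4 of 4 pairs of the same day and replicate except GNBP3, which was so in 3. Dif, a transcription factor of the pathway, went the other way, with a log2 change of -0.56. In the 16 libraries of the other times the log2 changes were 0.19 for SPE, 0.02 for PGRP-SA, -0.03 for nec and -0.15 for Dif. PGRP-SA had means of 40.7 CPM at the 4 h phase and 40.2 CPM at 12 h, and nec 141 and 149 CPM. Both genes were lowest at the 0 h phase. Bomanin genes encode short peptides made on Toll activation. All 4 that were tested had higher means at dusk, with a median log2 change of 0.88. Of the genes with a symbol, 51.5% had a positive change. Separate groups were found for 1 of the 4, against 5.91% of the genes with a symbol. The paper describes a larger family, of which only members with a symbol here could be tested. BomBc2 had 561, 578, 717 and 710 CPM at dawn and 871, 1058, 1909 and 1158 CPM at dusk. The 36 h library of replicate 1 was far above the other dusk libraries for BomS3 (9379 CPM against 2129 to 3928), BomS5 (4033 against 907 to 1587) and BomBc3 (1558 against 375 to 660). Without that library the median log2 change of the 4 genes was 0.37, and that of BomBc2 was 0.65.

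Among the antimicrobial peptide genes Mtk, which encodes metchnikowin, ranged from 675 to 2157 CPM at dawn and from 202 to 5649 CPM at dusk. Drsl5 averaged 147 ± 67.8 and 214 ± 37.8 CPM and was higher at dusk in 3 of 4 pairs with overlapping groups (log2 change 0.59). Listericin averaged 348 ± 97.5 and 439 ± 145 CPM. PGRP-SD, a recognition protein listed with the IMD pathway, averaged 107 ± 15.3 and 155 ± 59.7 CPM. Of the 5 IMD genes tested, 0 had an unadjusted edgeR p under 0.05 (against 3.57% of all genes tested and 10.4% of those with a symbol). With 5 genes this count cannot be told apart from those shares. Among 3 Turandot genes, which are stress-induced humoral factors, TotC had 78.7, 72.2, 30.8 and 76.2 CPM at dawn and 41.1, 25.0, 38.1 and 14.6 CPM at dusk. Its groups overlapped through 24 h replicate 1 alone, and the log2 change was -1.19 (SE 0.50; edgeR adjusted p = 1.00). TotX and TotA had overlapping groups and log2 changes of -0.44 and -0.19, and both turned positive on the first day alone.

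Of 28 cytochrome P450 genes, 0 passed the adjusted threshold, 1 was separate at dusk and 2 were separate at dawn (against 2.59% and 3.32% of the genes with a symbol). The median log2 change was 0.29, and 20 of the 28 were positive, against 50.9% of all genes tested. Cyp6a23 averaged 10.6 ± 1.84 CPM at dawn and 5.98 ± 0.482 CPM at dusk (log2 change -0.83), and Cyp6a21 8.13 ± 1.76 and 5.28 ± 0.860 CPM. Cyp18a1, which inactivates the moulting hormone 20-hydroxyecdysone, was higher at dusk with separate groups but a small log2 change of 0.30, and Cyp9h1 overlapped (0.54). Of 7 UDP-glycosyltransferase genes and 8 glutathione S-transferase genes, Ugt35B1 and GstZ2 respectively were separate (against 5.91% of the genes with a symbol), and the medians of both lists were -0.07 and 0.03. GstE9 averaged 346 ± 115 and 256 ± 110 CPM with overlapping groups.

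Astrocytes are known to clear transmitters from synapses, and glia are known to store lipid. Eaat2, a transporter of acidic amino acids, had 31.9, 50.3, 35.0 and 48.4 CPM at dawn and 24.2, 32.9, 21.2 and 44.3 CPM at dusk. It was lower at dusk in 4 of 4 pairs, yet the groups overlapped because replicate 2 was the higher one in both phases (log2 change -0.46, SE 0.12; edgeR adjusted p = 1.00). Gabat, the GABA transaminase, averaged 122 ± 36.2 and 124 ± 15.9 CPM, and Gs1, a glutamine synthetase, 196 ± 56.9 and 259 ± 164 CPM. e, which couples beta-alanine to amines, averaged 47.99 ± 25.3 and 38.1 ± 6.37 CPM. Of 7 lipid genes, 1 was separate (against 5.91% of the genes with a symbol), and the median log2 change was -0.16. The separate gene was Pss, the phosphatidylserine synthase, with 63.5 ± 15.0 CPM at dawn and 37.4 ± 6.68 CPM at dusk (log2 change -0.77). The gene mdy, which makes triglyceride, averaged 37.8 ± 16.02 and 24.5 ± 5.85 CPM. Of the 5 photoreceptor markers tested, all had overlapping groups, with log2 changes of -0.52 for the arrestin gene Arr1, 0.46 for chp, 0.03 for Rh5, 0.02 for Rh6 and 0.01 for inaD.

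Genes tied to feeding had overlapping groups, and none passed the adjusted threshold. tobi, a glucosidase that responds to diet, had 30.7, 10.1, 74.2 and 16.05 CPM at dawn and 109, 129, 16.9 and 63.9 CPM at dusk. The step was seen at 12 h in both crosses and at 36 h in replicate 2 only. Amy-d and Amy-p, the amylases, had log2 changes of 0.88 and 1.00 and were higher at dusk in 4 of 4 pairs of the same day and replicate, and Amy-p reached 80.7 CPM in 36 h replicate 2 against 13.2 to 21.0 CPM in the other dusk libraries. Of 15 cytosolic ribosomal protein genes, 0 had an unadjusted edgeR p under 0.05 (against 3.57% of all genes tested and 10.4% of those with a symbol). Their median log2 change was 0.31. This median was -0.15 on the first day alone and 0.81 on the second, and RpL13A ranged from 3601 to 10601 CPM within dawn. Of 19 nuclear genes of oxidative phosphorylation, 0 had an unadjusted edgeR p under 0.05 (against the same shares). The median was 0.04, and ATPsynbeta averaged 1551 ± 418 and 1215 ± 370 CPM. CG14186, from the list of genes induced by neuronal activity, averaged 10.5 ± 0.827 and 6.45 ± 0.636 CPM with separate groups (log2 change -0.70), and the calponin-like Chd64 of the clock output list 246 ± 35.3 and 180 ± 37.4 CPM with overlapping groups.

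**Figure D3:**
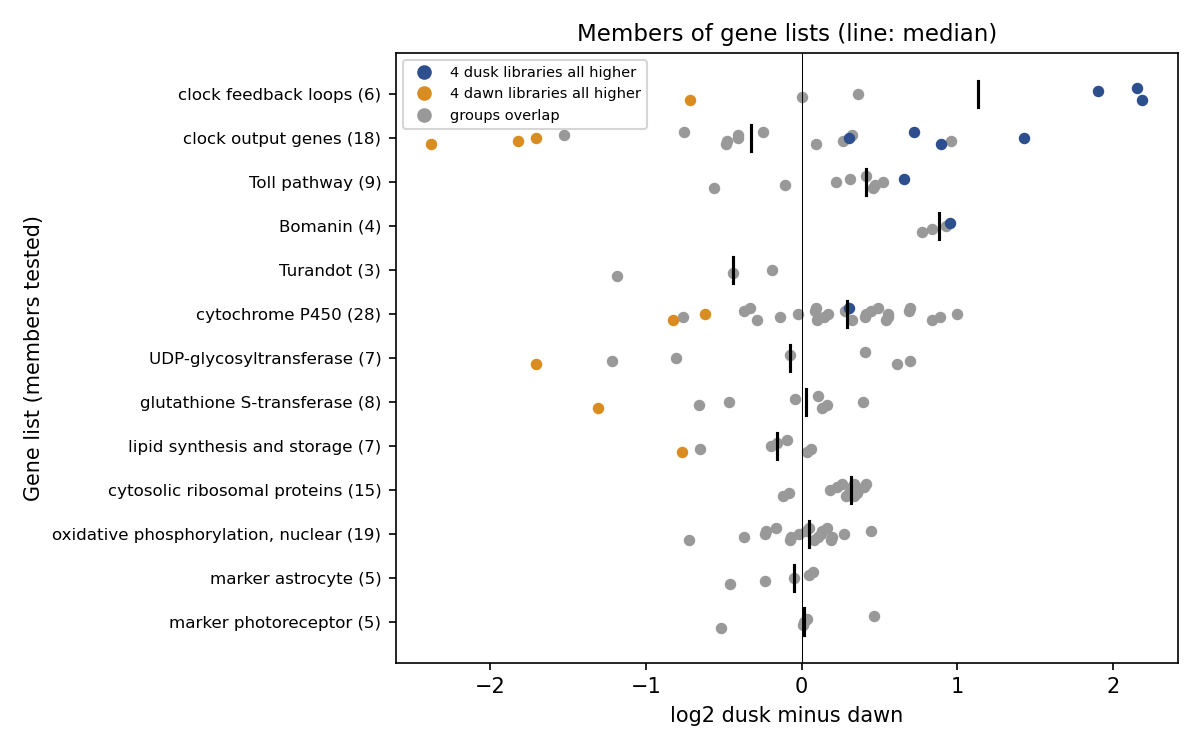
Log2 change from dawn to dusk of each tested member of 13 gene lists, one point per gene and a line at the median, with the number of members beside the list name. Blue and orange points have separate groups, and the Bomanin genes all lie above 0 while the cytochrome P450 genes spread on both sides of it.

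The same test was run in the 16 libraries of the other times. Here 8, 16, 32 and 40 h (within 4 h of dusk) were set against 4, 20, 28 and 44 h (within 4 h of dawn). This contrast differs from dawn against dusk, since it pools times before and after each phase. No gene passed the adjusted threshold in either direction (edgeR, 0%, 369 genes at an unadjusted p under 0.05, 3.93%; DESeq2 called 9 genes near dusk and 6 near dawn). The sign was the same as in the dawn and dusk libraries in 4457 of all 9392 genes (47.5%), in 41 of the 84 genes separate at dusk (48.8%) and in 58 of the 100 genes separate at dawn (58%). Of genes that were separate with a log2 change of at least 1 in size, 6 of 10 at dusk and 12 of 13 at dawn kept their sign. The log2 change in the other libraries was 0.78 for per (unadjusted p = 0.020), 0.72 for Usp8 (0.0022), -1.06 for Ugt35B1 (0.0014), -1.18 for Jhe (0.048), -0.54 for Nepl9 (0.036) and -0.61 for Drak (0.0032). It was 0.78 for tim (0.224) and 0.69 for vri (0.132), and -0.09 for ple (0.750), -0.13 for r (0.704) and 0.01 for BomBc2 (0.941). The mean of tim was 75.0 CPM at the 8 h phase, counted near dusk, and 199 CPM at 20 h, counted near dawn. r was highest at 20 h (51.5 CPM). A small or reversed value in this contrast therefore does not show that a gene lacks a rhythm. Most of these genes had their symbol from tables ranked by rhythm in all the samples, so the other libraries are not independent of how they came to be named.

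**Figure D4:**
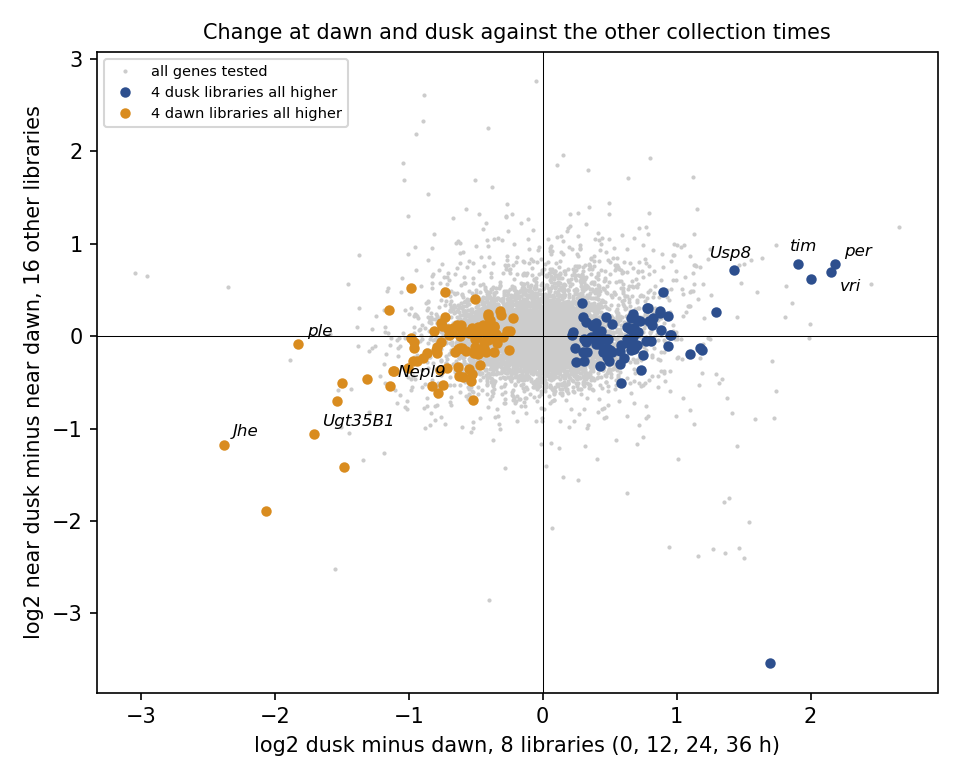
Log2 change from dawn to dusk in the 8 libraries (horizontal) against that from near dawn to near dusk in the 16 other libraries (vertical), one point per gene, with genes of separate groups in blue (dusk) and orange (dawn). The vertical spread of the 184 coloured genes is centred near 0, and per, tim, vri and Usp8 at upper right and Ugt35B1 and Jhe at lower left lie off it.

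The time of the highest and lowest level was read from the mean over both days and both replicates. Of the 84 genes separate at dusk, 42 were highest at the 12 h phase (50%, against 15.4% of all genes tested). At the 16 h phase 21 were highest (25%, against 20.3%), and at the 0 h phase 65 were lowest (77.4%, against 13.3%). Of the 100 genes separate at dawn, 49 were highest at the 0 h phase (49%, against 10.2% of all genes tested). At the 4 h phase 23 were highest (23%, near the 22.9% of all genes), and at the 12 h phase 70 were lowest (70%, against 17.9%). These shares follow in part from the choice of genes and are given as a description. per, tim and vri had their highest mean at 16 h rather than at 12 h. per and vri were lowest at 0 h and tim at 4 h. Ugt35B1 and Nepl9 were highest at 0 h and lowest at 16 h, ple and CG9377 were highest at 0 h and lowest at 12 h, and Clk was highest at 4 h and lowest at 12 h.

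**Figure D5:**
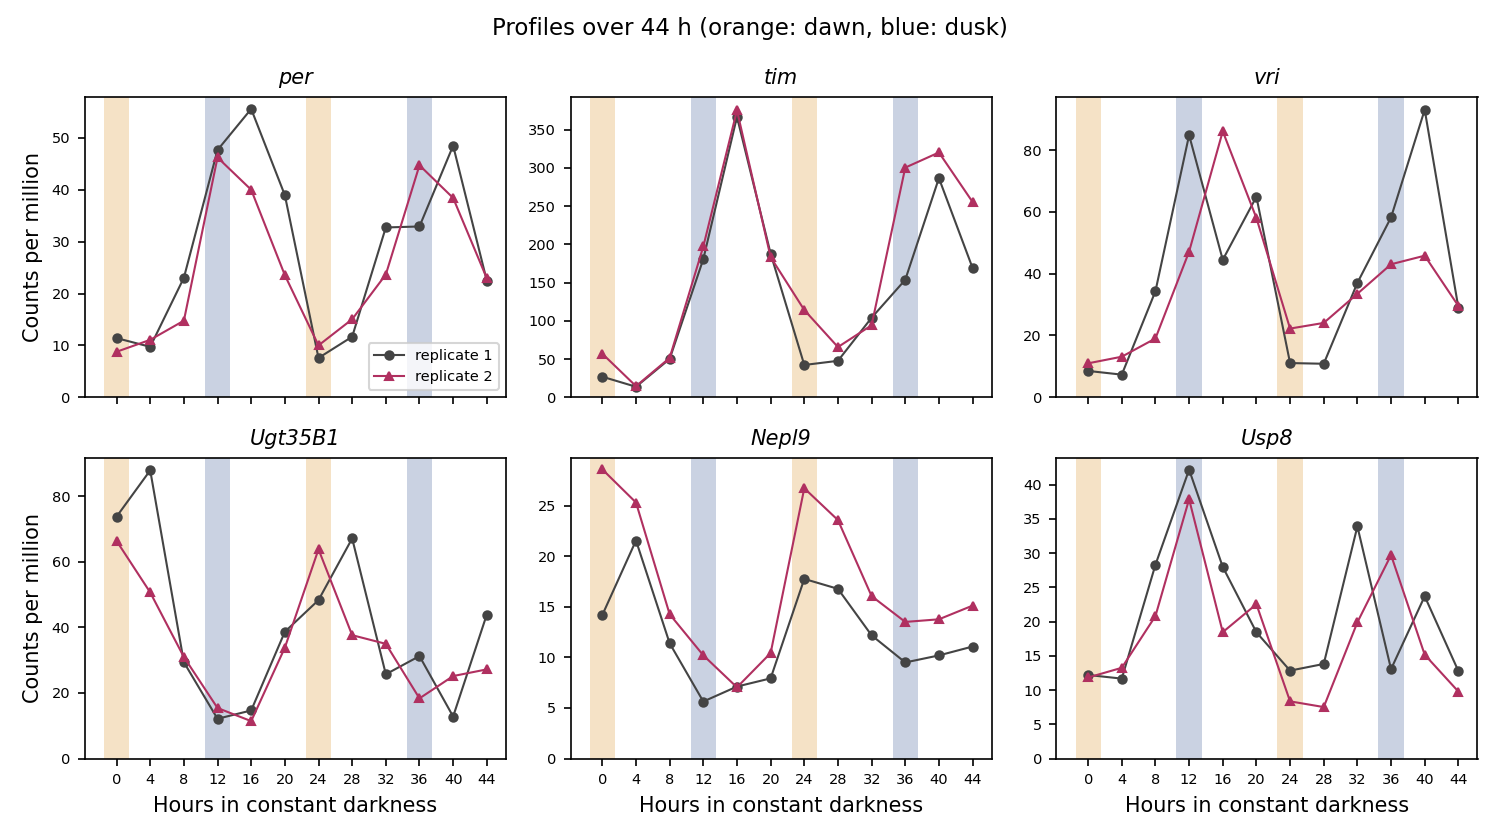
Levels of 6 genes over all 12 collection times in CPM, scaled over the 24 libraries, with replicate 1 as black circles, replicate 2 as red triangles, dawn shaded orange and dusk shaded blue. per, tim and vri are low at the orange bands and high at or after the blue bands on both days, and Ugt35B1 and Nepl9 have the opposite order.

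Whether the step from dawn to dusk differed between the 2 days was tested as an interaction, which 0 genes passed (edgeR, 0%, 200 genes at an unadjusted p under 0.05, 2.13%; DESeq2 called 2). For the difference between the 2 crosses the count was also 0 (0%, 270 genes at an unadjusted p under 0.05, 2.87%; DESeq2 called 12). The step of per was 2.23 on the log2 scale on the first day alone and 2.15 on the second (edgeR interaction adjusted p = 0.998). The log2 step of Ugt35B1 was larger on the first day in both crosses, with the same adjusted p.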

How the data were processed

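The authors sequenced each TRAP library 2 times, trimmed adapters, aligned the reads to BDGP6 (Release 6) with TopHat2 2.0.9 and deposited raw counts per gene from HTSeq 0.6.1, with no normalization; SAMtools 0.1.19 is also named per the labels. The counting mode and the strand setting are not given in the sources used here. Rows that name no gene held 26.4% of the reads of the 8 libraries and were left out. The 2 data sets of each library were summed, the 9392 of 17558 genes whose mean over all libraries reached 20 counts were tested, and dusk was set against dawn by edgeR 4.0.16 (TMM, glmQLFit, glmQLFTest, replicate as block) in R 4.3.3 with Benjamini-Hochberg adjustment over all genes tested. Standard errors are from least squares on log2(CPM + 0.5). Alternatives used limma 3.58.1, DESeq2 1.42.0, other filters, blocks, data sets and libraries. The test was also run on simulated counts in which all genes shared the same spread, which does not show how it performs on these data. The comparison and the gene lists were chosen with earlier results of these data known. Genes were named by rule: all clock loop genes tested, the 10 smallest p in each direction, and up to 4 members of smallest p in each list; Gclm, AhcyL2, Slob, Chd64, GNBP3, Hpd, hgo, Faa, Ogdh and Achl were chosen after their values were seen. Symbols came from the study's tables and RefSeq.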

Additional observations from a re-analysis of the deposited data

Results flagged for a closer look

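Of 138 groups of 4 libraries (69 named genes at dawn and at dusk), 5 held 1 library far from the rest by Dixon's test at its 95% critical value, and chance flags about 1 in 20 groups. Clk was 2.89 CPM in 12 h replicate 1 against 10.1 to 11.2 CPM in the other dusk libraries. TotC was 30.8 CPM in 24 h replicate 1 against 72.2 to 78.7 CPM in the other dawn libraries. Mtk was 2157 CPM in 24 h replicate 2 against 675 to 832 CPM at dawn otherwise. Amy-p was 80.7 CPM in 36 h replicate 2 against 13.2 to 21.0 CPM, and Faa was 33.2 CPM in the same library against 41.9 to 43.6 CPM.

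Listericin, which encodes an antibacterial peptide, had log2 steps of -0.04 in replicate 1 and -0.18 in replicate 2 on the first day (mean -0.11), and of 1.53 and 0.00125 on the second (mean 0.77). The second-day mean thus rested on replicate 1, since replicate 2 had almost no step. The test of this difference did not pass (edgeR interaction adjusted p = 0.998).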

How the results depend on the processing

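The 1 call at dusk was kept without the replicate block (no replicate block, 1 gene), and 0 genes were called at dusk with RLE size factors, with day as a second block, with data sets 2 and 4 alone, on each day alone, and without any 1 of the 8 libraries (0 to 0). DESeq2 called 15 genes at dusk and 15 at dawn, and the fit of all 24 libraries 3 and 3, with per among the dusk calls of both. The log2 change of per was 2.18 (edgeR adjusted p = 0.0521) with the day block, 2.18 (0.0511) with RLE size factors, 2.14 (0.0570) with data sets 2 and 4, 2.23 (1.00) on the first day, 2.15 (0.764) on the second, and 2.09 to 2.34 with 1 library left out. Near dusk and near dawn DESeq2 called 9 and 6 genes, and 2 and 12 for the day and replicate interactions, where edgeR called 0.

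Of the 69 named genes, 60 kept their sign under every alternative; tim, vri, Ugt35B1 and Nepl9 were among them. The level of cry did not: its log2 change was -0.049 without the replicate block, -0.037 with the day block, -2.8e-04 with RLE size factors, -1.7e-04 with DESeq2, -0.072 after quantile normalization, -0.032 with voom, -0.0029 with a mean of at least 1 count, -0.044 with all 24 libraries, -0.0062 with data sets 1 and 3, and -0.22 on the second day. On the first day alone the values were 0.038 for TotX, 0.23 for TotA, -0.10 for Listericin and -0.057 for Gabat. On the second day alone they were -0.33 for Mtk, -0.10 for Gs1, -0.10 for tobi and 0.012 for e. With 1 library left out, the ranges were -0.23 to 0.23 for cry, -0.84 to 0.15 for TotA, -0.27 to 1.29 for Mtk, -0.0073 to 0.43 for Gs1, -0.13 to 0.19 for Gabat and -0.48 to 0.047 for e. The causes were not tested.

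Replicate numbers were taken as a block because the crosses were independent. The differences between replicates correlated between times from -0.21 (0 h and 12 h) to 0.38 over the 9392 genes, so they do not pair the libraries clearly. Precision is limited by 4 libraries per phase.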
